A study of Mus musculus with 2 samples.

Results

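The 31 genes described here encode SR proteins and heterogeneous nuclear ribonucleoproteins (hnRNPs), measured in the newborn mouse hindbrain. They were taken by symbol, as every gene named Srsf followed by a number or Hnrnp followed by letters and digits. This gave 11 SR protein genes and 20 hnRNP genes, out of 43309 nuclear mouse genes listed. SR proteins bind RNA through recognition motifs and recruit the splicing machinery through a tail rich in arginine and serine. HnRNPs coat nascent transcripts, and many of them block or shift the use of splice sites, so the families often act against each other on an exon. Many genes of both families also hold exons or introns that bring in an early stop codon, and transcripts that carry them can be degraded by nonsense-mediated decay. In the developing brain both families help to set the splicing programmes of neurons.

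RNA came from the hindbrains of 2 mouse pups of strain B6NCrl, pup 3 and pup 1, at postnatal day 0, with no treatment and no genetic change named in the labels. The input per library was 13 pg of RNA above 200 nt in size, an amount the labels equate with 1 cell, although it came from whole tissue with mixed cells. Pup 3 is replicate 2 and pup 1 is replicate 1 of a single group, both carry the same donor record, and sex was not collected. With 1 library per pup, tissue, input and handling cannot be told apart in any difference between them, and no test was possible.

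The libraries held 28285749 expected counts on nuclear genes in pup 3 and 33462210 in pup 1. Expression levels are TPM values, which scale counts by transcript length, over nuclear genes, and errors are SDs with n = 2. A gene was taken as detected from an expected count of 5 upward. Of 15 Hox genes that mark the hindbrain, 6 were detected in both pups, led by Hoxb5 at 109 ± 21.9 TPM. Of 12 forebrain factors, 2 were detected in both, Neurod6 at 34.0 ± 21.7 TPM and Otx1 at 8.79 ± 1.24 TPM, while Emx1, Emx2, Six3 and Lhx2 were among those with 0 counts. All 6 neuronal markers and all 5 markers of astrocytes and radial glia were detected in both pups. Summed neuronal markers reached 6314 TPM in pup 3 and 8704 in pup 1, but 3 of the 6 were higher in pup 3 and 3 lower. Summed erythroid markers reached 3941 TPM in pup 3 and 1486 in pup 1, with 4 of 5 higher in pup 3. The other, Alas2, had 0 counts in pup 3 and 909 in pup 1. The part of such cell mixtures in the values below was not tested, and in tissue RNA fewer cells of a type and less RNA per cell cannot be told apart.

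All 31 genes were detected in both pups, against 37.8% of all protein-coding genes. Together they took 0.580% of nuclear counts in pup 3 and 0.673% in pup 1. Gene positions are from the annotation on mm10. The median gene stood at 122 TPM in pup 3 and 92.4 in pup 1. Among SR protein genes the median was 149 TPM in pup 3 and 63.2 in pup 1, and among hnRNP genes it was 112 TPM in pup 3 and 101 in pup 1.

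**Figure D1:**
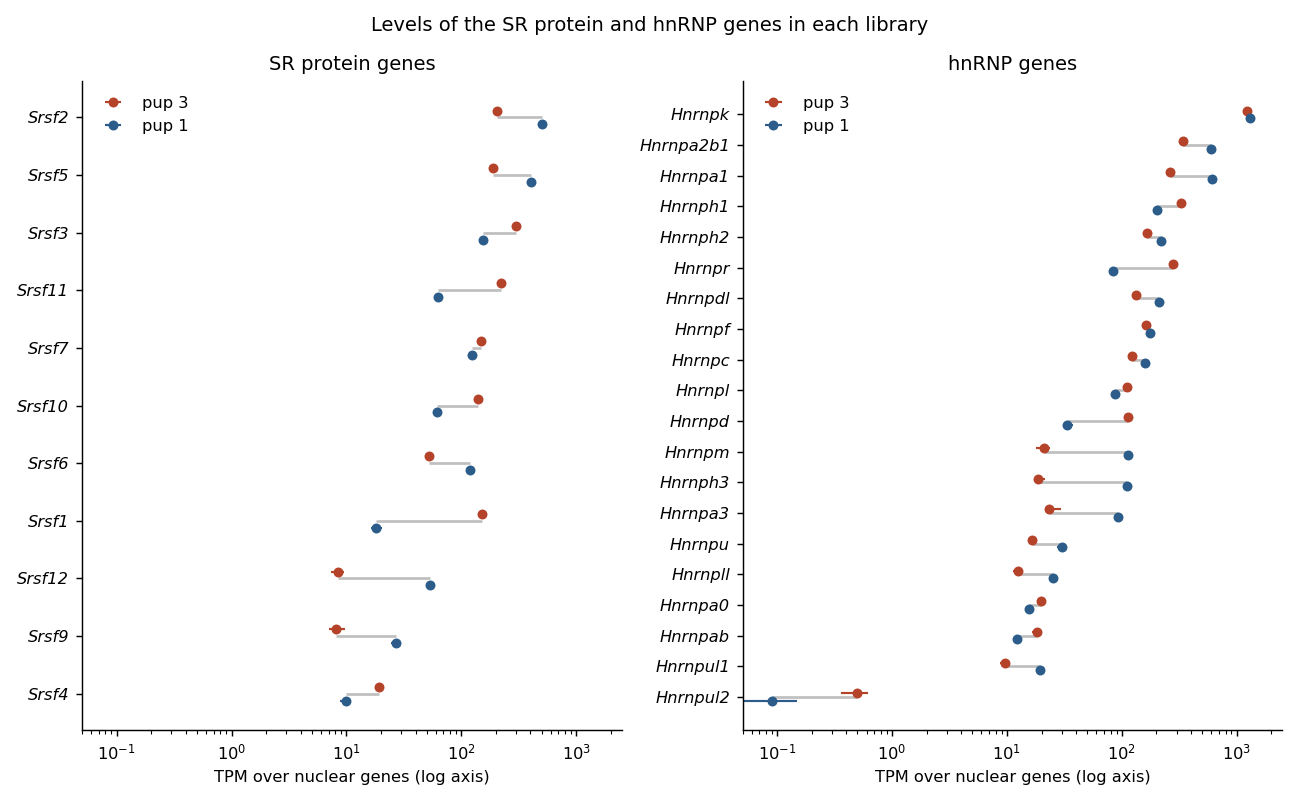
Each point is the level of a gene in 1 library, in TPM over nuclear genes on a log axis, for pup 3 (red, upper point) and pup 1 (blue, lower point). Coloured bars are the deposited intervals, rescaled like the TPM, cut at the point where they end short of it, and grey lines join the pups. Hnrnpk leads with 1236 TPM in pup 3 and 1297 in pup 1, and Hnrnpul2 lies lowest.

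Among SR protein genes, Srsf2 had the highest mean level, 353 ± 208 TPM. SRSF2 is a founding member of the family that binds exonic enhancers. Its gene (chromosome 11, 116849901 to 116853094, minus strand) had 206 TPM in pup 3 and 499 in pup 1. Srsf5 followed at 296 ± 153 TPM, with 188 TPM in pup 3 and 404 in pup 1. Srsf3, which encodes the smallest SR protein and also an adaptor for mRNA export (chromosome 17, 29032628 to 29043373, plus strand), had 301 TPM in pup 3 and 154 in pup 1. These leading SR genes thus differed in direction, with Srsf3 higher in pup 3 and the other two higher in pup 1.

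Srsf7, whose protein carries a zinc knuckle, was the SR gene whose pups lay closest, at 149 TPM in pup 3 and 124 in pup 1. Srsf11, whose protein contacts the factor that recognises the 3′ splice site, had 222 TPM in pup 3 and 63.2 in pup 1. Srsf10, known as a repressor when dephosphorylated, had 140.2 TPM in pup 3 and 61.5 in pup 1. Srsf11 and Srsf10 were both more than 2-fold higher in pup 3. Srsf6 had 52.5 TPM in pup 3 and 120 in pup 1. Srsf1, the gene of the prototype SR protein (chromosome 11, 88047373 to 88053755, plus strand), had 151 TPM in pup 3 and 18.2 in pup 1, an 8.33-fold higher level in pup 3. The lowest SR genes differed in direction too. Srsf12, a close relative of Srsf10, had 8.52 TPM in pup 3 and 52.9 in pup 1. Srsf9 had 8.08 TPM in pup 3 and 26.8 in pup 1, and Srsf4 had 19.4 TPM in pup 3 and 9.87 in pup 1.

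Among hnRNP genes, Hnrnpk stood first at 1267 ± 43.2 TPM, with 1236 TPM in pup 3 and 1297 in pup 1. It lies on chromosome 13 (58391142 to 58403343, minus strand), and its protein binds runs of C through KH domains. Hnrnpa2b1 followed at 469 ± 177 TPM, with 343 TPM in pup 3 and 594 in pup 1. Hnrnpa1, the classic splicing silencer that opposes SRSF1, had 260.4 TPM in pup 3 and 615 in pup 1. The SD of Hnrnpk was a small part of its mean, while the pups differed 1.73-fold for Hnrnpa2b1 and 2.36-fold for Hnrnpa1, with lower values in pup 3. The order of Hnrnpa2b1 and Hnrnpa1 was not the same in each pup.

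The hnRNP F and H proteins bind runs of G. Hnrnph1 had 325 TPM in pup 3 and 202 in pup 1, Hnrnph2 had 165 TPM in pup 3 and 217 in pup 1, and Hnrnpf had 161 TPM in pup 3 and 174 in pup 1. The related Hnrnph3 had 18.8 TPM in pup 3 and 110.4 in pup 1, the widest gap of this subfamily. Hnrnpc, whose protein binds U tracts, was close in the pups at 122 TPM in pup 3 and 160 in pup 1. Hnrnpl, the binder of CA repeats, had 111 TPM in pup 3 and 87.7 in pup 1, and its paralog Hnrnpll had 12.4 TPM in pup 3 and 25.3 in pup 1.

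Hnrnpd encodes AUF1, which binds AU-rich elements and affects mRNA decay, and had 114 TPM in pup 3 and 33.1 in pup 1. For its relatives the pups lay nearer to each other, with 133 TPM in pup 3 and 213 in pup 1 for Hnrnpdl, and 18.1 TPM in pup 3 and 12.3 in pup 1 for Hnrnpab. Hnrnpr, a relative of Syncrip, had 278 TPM in pup 3 and 83.5 in pup 1. Hnrnpm, a splicing regulator that binds GU-rich RNA (chromosome 17, 33646233 to 33686860, minus strand), had 20.9 TPM in pup 3 and 113 in pup 1. The levels of Hnrnpr and Hnrnpm thus stood in opposite order in the pups.

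Lower in the ranking, Hnrnpa3 had 23.2 TPM in pup 3 and 92.4 in pup 1, and the intronless Hnrnpa0 had 19.8 TPM in pup 3 and 15.6 in pup 1. Hnrnpu, a nuclear scaffold protein gene, had 16.5 TPM in pup 3 and 29.9 in pup 1. Its relative Hnrnpul1 had 9.61 TPM in pup 3 and 19.6 in pup 1. Hnrnpul2 was the lowest of all, at 0.491 TPM in pup 3 and 0.0903 in pup 1, from 50 counts in pup 3 and 10 counts in pup 1. In the order of mean levels over all 31 genes, the values of neighbouring genes overlapped in all but 2 of 30 pairs, the gap below Hnrnpk and the gap above Hnrnpul2.

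Many of these genes are read out as several transcripts. GENCODE lists a median of 6 transcripts for a gene of the families, 3 of them non-coding, against medians of 2 and 0 over all protein-coding genes. A transcript annotated for nonsense-mediated decay exists for 14 of the 31 (45.2%), against 14.2% of protein-coding genes, and a retained-intron transcript for 17 (54.8%), against 28.8%. Over the 7368 protein-coding genes with at least 50 counts in both pups, the medians were 4 listed and 1 non-coding transcript, with 20.8% having a decay transcript and 44.2% a retained-intron transcript. Classes are those of GENCODE M21, while the deposited tables used annotation M4, and a class may differ between the releases. Of genes with at least 50 counts in both pups and a non-coding transcript, 20 were SR or hnRNP genes. Their median share of TPM from non-coding transcripts was 22.8% in pup 3 and 30.7% in pup 1, against 1.24% in pup 3 and 3.29% in pup 1 over 4507 such protein-coding genes. Non-coding transcripts took at least 10% in both pups in 11 of the 20, against 26.4% of all such genes. The median was 58.1% in pup 3 and 36.8% in pup 1 for 9 SR genes, and 13.3% in pup 3 and 25.5% in pup 1 for 11 hnRNP genes. TPM divides counts by length, and several of these transcripts are short, such as Srsf10-207 at 717 bases. By expected counts the medians were 11.8% in pup 3 and 14.1% in pup 1 for the 20 genes, and 0.499% in pup 3 and 1.15% in pup 1 over all.

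**Figure D2:**
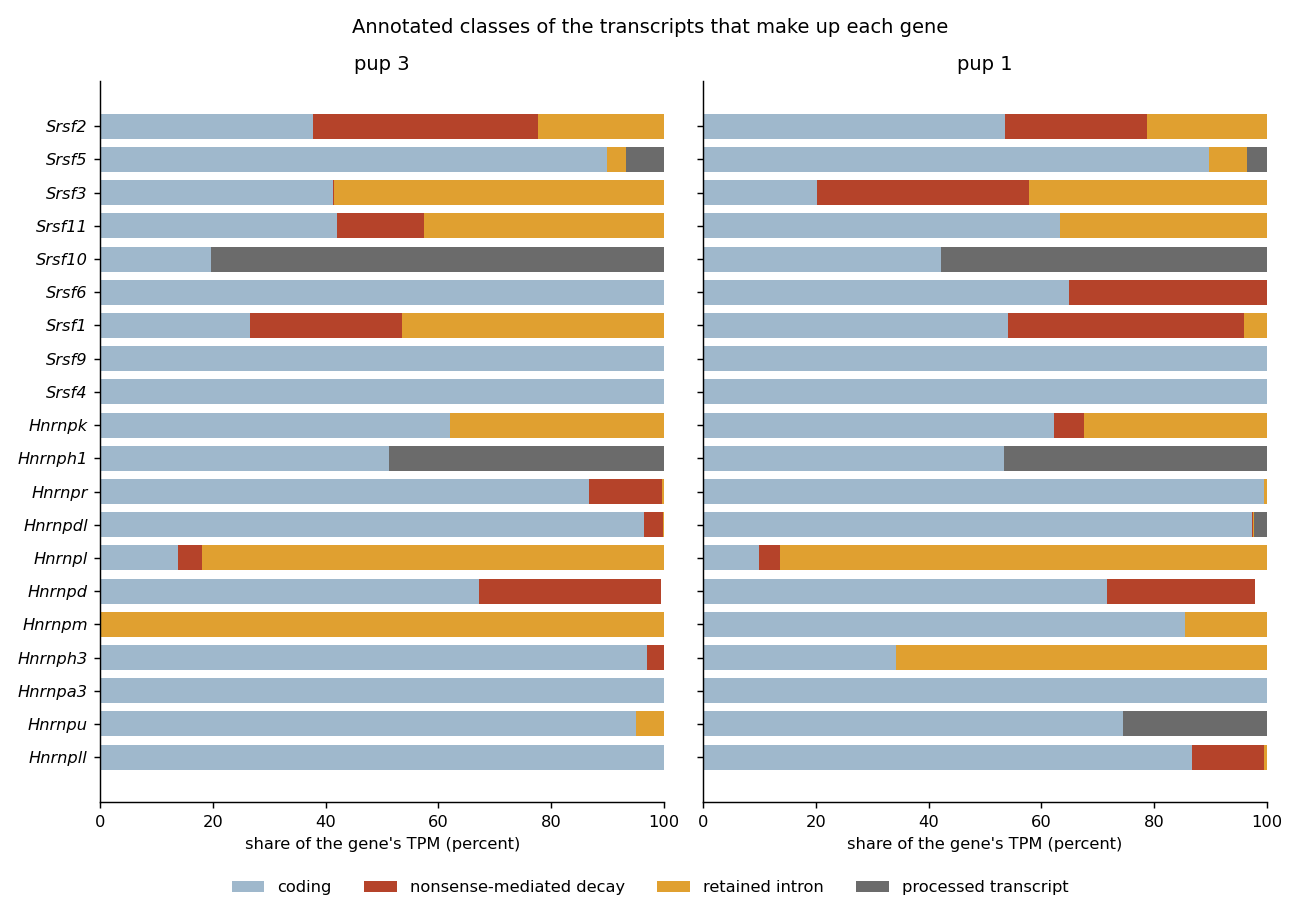
Bars show, for the 20 genes with a non-coding transcript and at least 50 counts in both pups, the percent of the gene's TPM from each annotated transcript class, with pup 3 on the left and pup 1 on the right. The empty end of the Hnrnpd bars is a transcript with no annotation match. Decay transcripts fill 0.200% of the bar in pup 3 and 37.6% in pup 1 for Srsf3, and 0% in pup 3 and 35.1% in pup 1 for Srsf6.

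Decay transcripts were compared exon by exon with the most abundant coding transcript of their gene. Of 23 such transcripts, 9 took at least 10% of the gene's TPM in 1 pup or both, and 4 of these have their stop codon in an exon that the main coding transcript skips. Those exons are printed from their first base to the stop codon, because they set the decay transcript apart from the main coding transcript. The exon of Srsf6-201 overlaps an exon of another annotated coding transcript of its gene. Sequences are from GENCODE M21 transcripts on GRCm38, the assembly also called mm10. The stop codon is in capitals. They lie at chr17:29039454-29039487 on the plus strand (Srsf3-201, exon 4 of 7), chr2:162932815-162932966 on the plus strand (Srsf6-201, exon 3 of 7), chr3:158024209-158024231 on the minus strand (Srsf11-206, exon 4 of 9) and chr17:80044976-80045022 on the minus strand (Hnrnpll-203, exon 7 of 14).
Srsf3-201: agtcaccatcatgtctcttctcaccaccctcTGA
Srsf6-201: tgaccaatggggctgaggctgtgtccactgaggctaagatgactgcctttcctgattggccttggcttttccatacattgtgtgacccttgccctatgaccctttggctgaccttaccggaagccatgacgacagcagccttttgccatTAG
Srsf11-206: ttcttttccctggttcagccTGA
Hnrnpll-203: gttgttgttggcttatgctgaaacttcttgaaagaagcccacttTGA

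The stop codons lie far before the last exon junction of their transcripts, by 548 bases in Srsf3-201, 534 bases in Srsf6-201, 456 bases in Srsf11-206 and 807 bases in Hnrnpll-203. In Srsf3, Srsf6 and Hnrnpll the main coding transcript joins the neighbouring exons directly, and no join is given for Srsf11. For these joins the last 21 coding bases of the upstream exon are in lower case and the 21 coding bases that follow are in capitals. They join exons 3 and 4 of Srsf3-202 (chr17:29038604-29038624 to chr17:29040775-29040795, plus strand), exons 2 and 3 of Srsf6-203 (chr2:162932122-162932142 to chr2:162933426-162933446, plus strand), and exons 6 and 7 of Hnrnpll-205 (chr17:80048608-80048628 to chr17:80044545-80044565, minus strand).
Srsf3-202: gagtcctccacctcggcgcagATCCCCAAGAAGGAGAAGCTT
Srsf6-203: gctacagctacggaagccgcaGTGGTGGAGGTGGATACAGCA
Hnrnpll-205: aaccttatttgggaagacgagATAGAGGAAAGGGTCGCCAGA

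Srsf3 shows the split most fully. The decay transcript Srsf3-201 took 0.200% of the gene's TPM in pup 3, from 19.6 expected counts, and 37.6% in pup 1, from 2181 expected counts. The coding transcript Srsf3-202 took 41.2% in pup 3 and 20.2% in pup 1. Retained-intron transcripts made up the rest, with Srsf3-205 at 58.6% in pup 3 and 25.1% in pup 1, and Srsf3-204 at 0.01% in pup 3 and 17.0% in pup 1. The coding level of Srsf3 was therefore 124 TPM in pup 3 and 31.1 in pup 1, a 3.99-fold gap, against 1.96-fold for the whole gene.

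In Srsf6, the coding transcript Srsf6-203 held all of the TPM in pup 3 and 64.9% in pup 1. The decay transcript Srsf6-201 had 0 counts in pup 3, with a rescaled upper bound of 0.402 TPM. In pup 1 it had 1366 counts or 42.1 TPM. Srsf11-206 showed the opposite pattern, with 518 counts and 15.2% of TPM in pup 3 and 0 counts in pup 1. Hnrnpll-203 had 0 counts in pup 3 and 175 counts, or 12.7% of TPM, in pup 1. The level of Hnrnpll-203 in pup 1 was 3.20 TPM, with a rescaled interval of 0.785 to 6.18 TPM. That interval overlaps the one in pup 3, which has an upper bound of 1.93 TPM. Of the exon-carrying transcripts, Srsf11-206 was thus abundant in pup 3 alone, and Srsf3-201 and Srsf6-201 in pup 1 alone. For Hnrnpll-203 the rescaled intervals did not separate the pups.

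In the other decay transcripts at or above 10%, the stop codon lies in an exon that overlaps an exon of the main coding transcript. Srsf2-204 took 39.9% of TPM in pup 3 and 25.3% in pup 1, beside 37.7% in pup 3 and 53.5% in pup 1 for the coding Srsf2-201. Srsf1-204 took 27.0% in pup 3 and 41.9% in pup 1. Hnrnpd-204 took 13.7% in pup 3 and 26.2% in pup 1. These 3 transcripts were the decay transcripts that reached 10% of TPM in both pups. By expected counts, decay transcripts reached 10% in both pups in Srsf1 alone, at 11.4% in pup 3 and 17.5% in pup 1. They then took 16.4% in pup 3 and 9.03% in pup 1 for Srsf2, and 17.2% in pup 3 and 7.92% in pup 1 for Hnrnpd. Hnrnpd-208 took 18.6% and Hnrnpr-206 took 13.1% in pup 3, and both had 0 counts in pup 1.

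Retained-intron transcripts led or shared several genes. The class comes from the annotation, so reads of incompletely spliced RNA in the same intron cannot be told apart from it. Hnrnpl was made up mainly of this class, with 81.9% of TPM in pup 3 and 86.4% in pup 1, led by Hnrnpl-210 at 29.9% in pup 3 and 84.9% in pup 1. By expected counts the class still took 71.7% in pup 3 and 66.9% in pup 1. Hnrnpk, the most abundant gene, carried 38.0% in pup 3 and 32.5% in pup 1, mostly as Hnrnpk-217, but by expected counts the class took 14.9% in pup 3 and 12.7% in pup 1. Srsf11 held 42.6% in pup 3 and 36.8% in pup 1, and Srsf2 held 22.4% in pup 3 and 21.2% in pup 1. In each of these 4 genes the class stood at a like share in both pups.

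In other genes the classes had unlike shares of TPM in the pups. Srsf1-203, a retained-intron transcript, took 46.4% of TPM in pup 3 and had 0 counts in pup 1. The coding RNA of Srsf1 also differed, with Srsf1-205 at 25.6% in pup 3 and 1.37% in pup 1, and Srsf1-201 at 0.960% in pup 3 and 51.2% in pup 1. By expected counts Srsf1 was mainly coding in both, at 72.5% in pup 3 and 81.3% in pup 1, with retained-intron transcripts at 16.2% in pup 3 and 1.17% in pup 1. Hnrnpm in pup 3 was almost wholly the retained-intron transcript Hnrnpm-203, at 99.9% from 205 counts, while its coding transcripts summed to 1.07 expected counts in pup 3 and 4810 in pup 1. The gene level of Hnrnpm in pup 3 was thus not a level of coding RNA. In Hnrnph3 the classes stood in the other order. The coding Hnrnph3-201 took 97.1% in pup 3 and had 0 counts in pup 1, where the coding Hnrnph3-202 and Hnrnph3-203 took 18.9% and 15.3%. The retained-intron transcripts Hnrnph3-205 and Hnrnph3-206 had 0 counts in pup 3 and took 33.9% and 31.9% in pup 1. Coding transcripts of Hnrnph3 summed to 18.2 TPM in pup 3 and 37.8 in pup 1, so the coding level was lower in pup 3 although its share was higher. By expected counts, coding transcripts were 97.9% of Hnrnph3 in pup 3 and 53.9% in pup 1.

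Processed transcripts, non-coding RNAs outside the classes above, were prominent in Srsf10 and Hnrnph1. In Srsf10 they took 80.3% of TPM in pup 3 and 57.9% in pup 1, mainly Srsf10-207 in pup 3 at 70.2% and Srsf10-201 in pup 1 at 38.5%. By expected counts they took 44.5% of Srsf10 in pup 3 and 46.9% in pup 1. In pup 3 the coding Srsf10-202 then led, with 1443 counts beside 1111 for Srsf10-207. The coding transcripts of Srsf10 summed to 27.6 TPM in pup 3 and 25.9 in pup 1, a 1.07-fold gap, against 2.28-fold for the gene. In Hnrnph1 processed transcripts took 48.8% of TPM in pup 3 and 46.6% in pup 1, and by expected counts 34.6% in pup 3 and 25.0% in pup 1. At the other end, Srsf4, Srsf9 and Hnrnpul1 had a single transcript holding all of the TPM in both pups. Srsf4, Srsf9 and Hnrnpa3 list non-coding transcripts, and these had a share of 0 in both pups. Srsf7, Hnrnpa0 and Hnrnpul2 have a single listed transcript. For Srsf12, Hnrnpa1, Hnrnpa2b1, Hnrnpab, Hnrnpc, Hnrnpf, Hnrnph2 and Hnrnpul1 only coding transcripts are listed. The annotation thus fixed the non-coding share of these genes at 0.

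The most abundant transcript differed between the pups in 9 of 28 genes that had at least 50 counts in both and several transcripts, against 36.4% of 5563 protein-coding genes. The 9 were Srsf1, Srsf2, Srsf3, Srsf5, Srsf10, Hnrnpf, Hnrnph3, Hnrnpm and Hnrnpr. In Hnrnpr the switch was between coding transcripts. Hnrnpr-205 took 46.3% in pup 3 and had 0 counts in pup 1, and Hnrnpr-204 took 6.10% in pup 3 and 71.1% in pup 1. By expected counts Hnrnpr-202 led in pup 3, with 4437 counts beside 2072 for Hnrnpr-205. Hnrnpf likewise passed between coding transcripts, with Hnrnpf-210 leading at 51.2% in pup 3 and Hnrnpf-201 at 66.5% in pup 1. A non-coding transcript led in at least 1 pup in 7 of the 28, against 21.2% of the same background. Both shares lay near their backgrounds.

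The leading coding transcript was the same in both pups in Hnrnpa1, Hnrnpc and Hnrnpa2b1. In Hnrnpa1 the shorter Hnrnpa1-202 took 88.7% of TPM in pup 3 and 84.9% in pup 1, beside 11.3% in pup 3 and 15.1% in pup 1 for Hnrnpa1-201. Hnrnpc-201 took 95.9% of its gene in pup 3 and 95.3% in pup 1. In Hnrnpa2b1, Hnrnpa2b1-202 took 49.3% in pup 3 and 54.0% in pup 1, and Hnrnpa2b1-203 took 45.0% in pup 3 and 31.4% in pup 1. By expected counts Hnrnpa2b1-203 led in both, with 11269 in pup 3 and 15403 in pup 1. Hnrnpa2b1-202 had 4836 in pup 3 and 10396 in pup 1. Less even were Hnrnpdl and Hnrnpa3. Hnrnpdl-207 took 0.230% in pup 3 and 34.5% in pup 1, and Hnrnpa3-204 took 15.1% in pup 3 and 42.8% in pup 1. In Srsf5 the coding transcripts were spread more widely, with Srsf5-203 at 32.6% in pup 3 and 3.13% in pup 1, and Srsf5-205 at 22.4% in pup 3 and 30.3% in pup 1. The coding transcripts of 1 gene share most of their exons, so the split among them rests on the authors' estimate.

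Folds between the pups were counted among genes with at least 50 counts in 1 library or both, which all 31 passed. Past 4-fold, 2 genes were higher in pup 3, Srsf1 and Hnrnpul2, where 18.3% of 11245 protein-coding genes were. Lower in pup 3 past 4-fold were 3 genes, Srsf12, Hnrnph3 and Hnrnpm, where 27.7% of protein-coding genes were. Past 2-fold, 6 genes were higher in pup 3, against 28.7%, and 11 were lower, against 35.6%. In either direction 16.1% of the genes passed 4-fold, against 46.1% of all, and 54.8% passed 2-fold, against 64.3%.

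**Figure D3:**
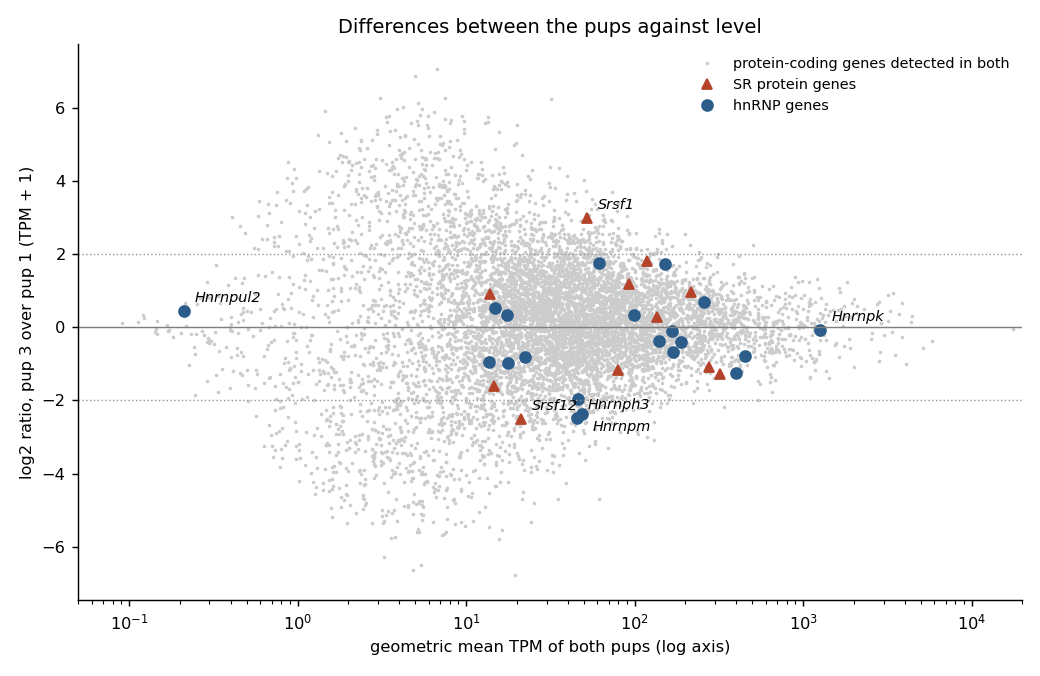
Each point is a gene, with the geometric mean TPM of the pups on a log axis and the log2 ratio of pup 3 over pup 1, after adding 1 TPM, on the other axis. Grey points are protein-coding genes detected in both pups, and dotted lines mark 4-fold. SR genes (red triangles) and hnRNP genes (blue circles) lie mostly among the abundant genes, and Srsf1 stands highest among them at 2.99.

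Lower genes varied more between the libraries, so the families are better read against genes of like level. Level here is the geometric mean TPM of the pups. At 30 to 100 TPM, 7 of 8 SR and hnRNP genes passed 2-fold and 3 passed 4-fold, against 41.6% and 11.5% of 2646 protein-coding genes of that level. At 100 to 300 TPM, 3 of 10 passed 2-fold and 0 passed 4-fold, against 26.6% and 3.23%. At 10 to 30 TPM, 4 of 8 passed 2-fold and 1 passed 4-fold, against 55.8% and 25.6%. At 300 to 1000 TPM, 2 of 3 passed 2-fold, Hnrnpa1 and Srsf2, and 0 passed 4-fold, against 14.5% and 0.752%. The median log2 ratio of the 31 genes was -0.38, against 0.14 over all protein-coding genes detected in both. It was 0.27 for the SR genes and -0.39 for the hnRNP genes, with 6 of 11 SR genes and 7 of 20 hnRNP genes higher in pup 3.

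No gene changed direction between TPM and CPM, the share of counts without length scaling. The size of the ratio moved by over 1.5 times in 5 genes, Hnrnph3, Hnrnpl, Hnrnpm, Hnrnpr and Srsf10. Hnrnpm was 5.41-fold lower in pup 3 on the TPM scale and 20.6-fold lower on the CPM scale. Hnrnph3 was 5.87-fold lower in pup 3 by TPM and 2.39-fold lower by CPM. Srsf12, whose TPM came wholly from coding transcripts, was 6.22-fold lower by TPM and 5.59-fold lower by CPM. Srsf1 stayed far apart on all scales, 8.65-fold higher in pup 3 by CPM and 4.09-fold higher in coding TPM. The ratio of Hnrnpul2 by CPM was 5.92, with an exact 95% counting interval of 2.96 to 13.1 that covers counting error alone, because reads copied by amplification do not each stand for a molecule.

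**Figure D4:**
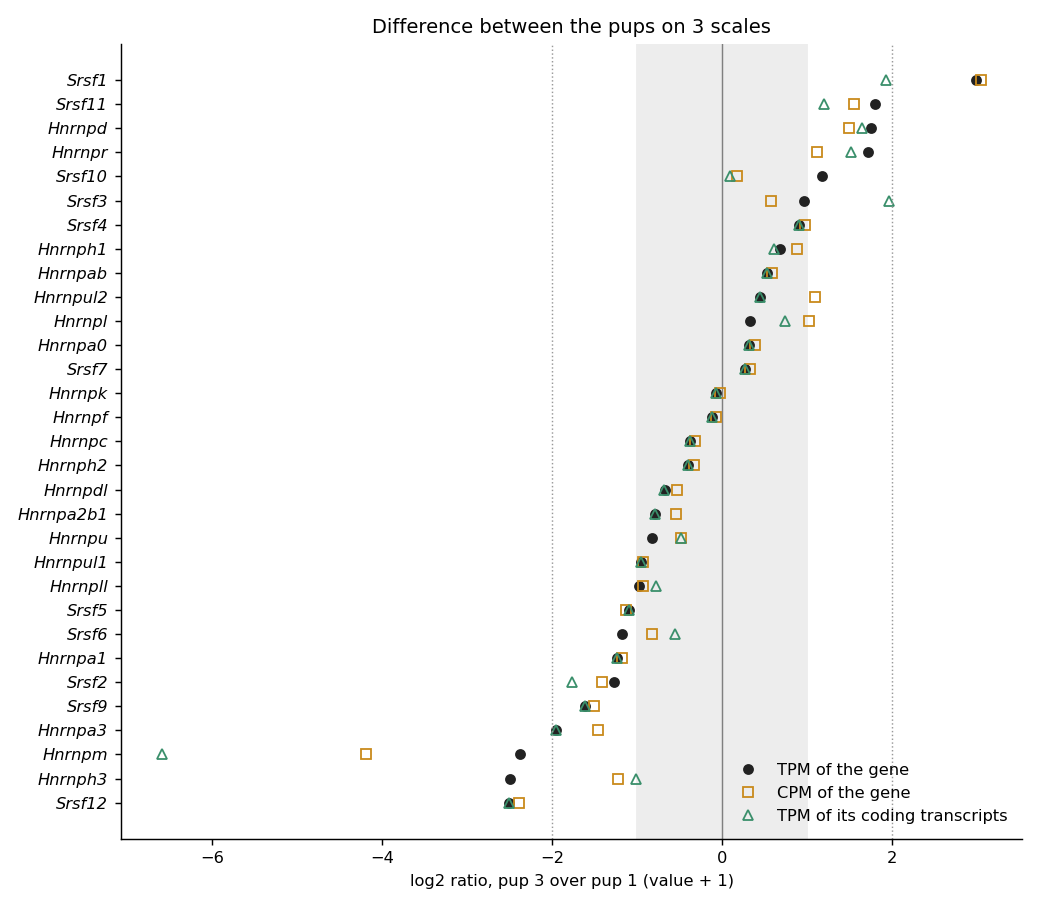
For each of the 31 genes, log2 ratios of pup 3 over pup 1 are given after adding 1, for the gene's TPM (black circles), its CPM (orange squares) and the TPM of its coding transcripts (green triangles). Grey shading marks less than 2-fold and dotted lines mark 4-fold. The scales lie far apart for Hnrnpm, Hnrnph3, Srsf10 and Srsf3, and Hnrnpul2 is drawn toward 0 by the added value.

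Reads of some genes can be shared with processed copies or overlapping genes. The largest copy was Gm7964 of Hnrnpk, with 2003 counts in pup 3 and 1846 in pup 1. Gm5641, a copy of Hnrnpa3, had 537 counts in pup 3 and 845 in pup 1. For Gm9761, a copy of Srsf3, there were 407 in pup 3 and 121 in pup 1. The copies Gm12696 of Hnrnpc and Gm10052 of Hnrnpa1 had 323 and 93.0 counts in pup 3 and 183 and 171 in pup 1. Hnrnpa3 had the largest deposited posterior SD of a count, 2.90% of the count. Srsf2 overlaps Mfsd11 on the opposite strand over 288 exon bases, and Mfsd11 had 4966 counts in pup 3 and 2098 in pup 1. Also on the opposite strand, Hnrnph3 overlaps Rufy2 (3992 counts in pup 3, 1468 in pup 1), Hnrnpu overlaps Cox20 (288 in pup 3, 1284 in pup 1) and Srsf2 overlaps Mettl23 (82.1 in pup 3, 271 in pup 1). Rmi1, which overlaps Hnrnpk, and Phykpl, which overlaps Hnrnpab, had 0 counts in pup 3, and 3238 and 1123 in pup 1. On its own strand Hnrnpm overlaps March2, with 0 counts in pup 3 and 71 in pup 1. The sources used here do not say if counting used strand, without which such reads cannot be told apart.

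Kinases that phosphorylate SR proteins, listed with nuclear importins, were detected in both pups in 8 of 10 cases. Of all protein-coding genes 37.8% were, which is the background for the lists below too. Past 4-fold in either direction were 3 of the 10, where 46.1% of protein-coding genes were. That share includes low genes, which varied more, and at a geometric mean of 30 to 100 TPM it was 11.5%. A gene at 0 in 1 pup has no place in that bin, and a gene near 0 in 1 pup falls lower. The lists count such genes, so the 11.5% given here and below is not a matched background. Clk4 averaged 86.1 ± 49.4 TPM, Clk1 81.3 ± 74.0 TPM and the importin Tnpo3 67.0 ± 7.77 TPM. Past 4-fold, Srpk3 was higher in pup 3, with 76 counts in pup 3 and 1 in pup 1. Clk1 was 4.61-fold lower in pup 3, and Clk2 had 0 counts in pup 3 and 262 in pup 1. The general SR kinase gene Srpk2 lay closer by TPM, at 67.9 TPM in pup 3 and 56.5 in pup 1.

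SR-related proteins and SR antagonists were detected in both pups in 16 of 20 cases, with 5 (25.0%) past 4-fold. Of all protein-coding genes 46.1% passed 4-fold, and of those at 30 to 100 TPM 11.5% did. Pnn and Tra2a, at 0 in pup 3, cannot enter that bin. The highest were Rnps1 (310.0 ± 75.8 TPM), Srrm2, the large SR-related scaffold of nuclear speckles (301 ± 27.2 TPM), and Tra2b (152 ± 71.2 TPM). Scaf4 alone was past 4-fold higher in pup 3, with 538 counts in pup 3 and 3 in pup 1. Past 4-fold lower were Pnn (0 counts in pup 3 and 5501 in pup 1), Tra2a (0 counts in pup 3 and 1694 in pup 1), Srrm3 (80 counts in pup 3 and 612 in pup 1) and Scaf8 (2 counts in pup 3 and 225 in pup 1). HnRNP relatives under other symbols were detected in both pups in 17 of 20 cases, led by Matr3 at 778 ± 8.53 TPM, Rbm3 at 735 ± 240 TPM and Cirbp at 606 ± 231 TPM. Of 19 with enough counts, 6 (31.6%) passed 4-fold, beside the same shares of protein-coding genes, 46.1% and 11.5%. The second share has the same limit. Dhx9 was 8.24-fold higher in pup 3, and Ptbp3 had 59 counts in pup 3 and 0 in pup 1. Past 4-fold lower in pup 3 were Tardbp, the gene of TDP-43, by 10.3-fold, Raly by 9.14-fold and Khsrp by 4.88-fold. Also lower was Ptbp1, the polypyrimidine tract binder of progenitor cells, which had 1.18 counts in pup 3 and 5607 in pup 1.

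Core snRNP and U2 recruitment proteins were detected in both pups in 27 of 28 cases, with Snrpd2 at 339 ± 14.1 TPM, Snrpg at 324 ± 17.7 TPM and Ddx39b at 322 ± 77.1 TPM. Past 4-fold in either direction were 2 of the 28 (7.14%), where 46.1% of protein-coding genes were. They were Prpf3, with 1231 counts in pup 3 and 1 in pup 1, and Sf3a1, which was 8.97-fold lower in pup 3. The median level of this list was 76.7 TPM in pup 3 and 72.7 in pup 1. Nearer to that level, 11.5% of protein-coding genes at 30 to 100 TPM passed 4-fold, and 3.23% at 100 to 300 TPM. Both shares are by geometric mean, under which a gene near 0 in 1 pup, such as Prpf3, falls lower. Factors of nonsense-mediated decay, the pathway that removes transcripts with early stops, were detected in both pups in 9 of 14 cases. Eif4a3 (239 ± 36.5 TPM), Magoh (80.8 ± 21.3 TPM) and Rbm8a (71.2 ± 60.4 TPM), which belong to the exon junction complex, were highest. None of 13 with enough counts was past 4-fold higher in pup 3, and 7 were past 4-fold lower, among them Upf2 with 59 counts in pup 3 and 1505 in pup 1 and Smg5 with 76 counts in pup 3 and 2015 in pup 1. Smg6, Smg8, Smg9 and Casc3 had 0 counts in pup 3 and 753 to 3159 in pup 1, and Rbm8a was just past 4-fold lower there. In this list 53.8% of genes were past 4-fold lower in pup 3, where 27.7% of protein-coding genes of all levels were. By TPM, 5 of the 14 were higher in pup 3 and 9 were lower. Upf3a was 2.35-fold higher in pup 3. Upf1, below the minimum count, had 29 counts in pup 3 and 0 in pup 1.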

How the data were processed

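RNA of 1 group, newborn hindbrain, was measured in 2 libraries, pup 3 and pup 1. The labels describe both libraries as total RNA-seq. Per the labels' protocols, extraction used mirVana and the general protocol is for Smart-seq. The authors deposited, on the mm10 assembly, a gene table and a transcript table for each library. Per the file headers these give an expected count, in which reads shared among transcripts are split, with TPM and FPKM, which the authors scaled by effective length. The deposited percent of each transcript (IsoPct) is its part of the gene's TPM. The deposited posterior SD of a count and the bounds of a TPM interval, signal values that are never negative, were also used. Aligner, software versions and use of strand are not stated in the sources at hand.

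TPM was rescaled to 1000000 over nuclear genes, which held 89.6% of deposited TPM in pup 3 and 88.6% in pup 1. The deposited bounds of TPM intervals were rescaled by the same factor in each library. Symbols, transcript classes and sequences came from GENCODE M21 on GRCm38 by stable identifier, while the deposited tables used annotation M4. This matched 42462 of 43346 mouse genes and 211 of 212 transcripts of the 31 genes. Coordinates are 1-based. Intervals and low counts carry counting error only. A pseudocount of 1 was added for log2 ratios, which understates differences of low genes. Copies were found with BLAST 2.17.0 at 95% identity or more over at least 200 bases. Scaling factors came from edgeR 4.0.16 (TMM) and DESeq2 1.42.0 on expected counts rounded to whole numbers. Python 3.11.15 with pandas 2.3.3 did the rest. Fold counting was tested on simulated data. The 31 genes and all lists were chosen with earlier results of these data known. Named were all 31 genes, the 3 highest members and those past 4-fold of each pathway list, and copies or overlapping genes with at least 50 counts. Alternatives covered detection limits, folds, minimum counts, pseudocounts, scalings, shares by count and each library alone.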

Additional observations from a re-analysis of the deposited data

How the results depend on the processing

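Detection held in all 31 genes at an expected count of 1 or 10, after thinning of the deeper library and in each library alone, and in 30 at 1 TPM. The count of 5 genes past 4-fold was 17 past 2-fold and 1 past 8-fold, and 4 to 6 under the other minimum counts and scalings. The median log2 ratio of -0.38 was -0.52 with TMM factors and -0.54 with DESeq2 factors, which shift every ratio alike by -0.14 and -0.16, and between -0.32 and -0.38 with other pseudocounts, CPM or deposited TPM. The coding-transcript TPM, an alternative chosen after seeing the data, gave 4 genes past 4-fold and a median of -0.38. The median of mean levels, 99.1 TPM, was 92.4 to 122 TPM with each library alone. The median non-coding share, 31.8%, was 22.8 to 30.7% with each library alone and 13.7% by expected counts, where short transcripts are not raised by length scaling. By expected counts a non-coding transcript led in 4 genes in place of 7. Among values of single genes, 109 of 248 log2 ratios under alternatives moved, 62 of them by the TMM and DESeq2 shift. A reversal of sign was looked for in the 5 genes past 4-fold alone, and none was found. Of 20 non-coding shares of single genes, 10 moved when taken by expected counts, among them Srsf1 at 23.1% and Hnrnpk at 14.8%. Pathway list counts stayed within 1.5 times. No paired analysis was possible because there is a single group with 1 library per pup. At 13 pg of input, transcripts with 0 counts in a library were not detected at this depth, which does not show that they are absent from the tissue.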
